A study of Mus musculus with 8 samples.

Results

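The thymic and the tumor-infiltrating CD8+ T cell receptor (TCR) repertoires of 5 mice (mouse-160A, mouse-160B and mouse-160C, and mouse-164B and mouse-164C) were compared within each mouse. These are the animals for which a thymus table and a tumor table were both deposited, and the animal and tissue are those in the name of each table. A cell was counted when its barcode carried no multiplet mark and had a TCRα (TRA) and TCRβ (TRB) CDR3, which gave 58883 cells, 25808 from thymus and 33075 from tumor, of 66914 counted cells in the series. The study profiled TCRs of CD8+ T cells from Pdcd1fl/fl mice and from Pdcd1 cKO mice, bearing B16-OVA or B16-F10 melanoma or no tumor. The floxed Pdcd1 gene encodes PD-1, and in the cKO it is removed by E8I Cre, a Cd8a-driven transgene that acts in CD8+ T cells after positive selection. Neither genotype, tumor model nor age is given per animal in the labels, so no comparison between genotypes or models was made. The paper's thymus and tumor comparisons cover both genotypes and both tumor models, so the 5 pairs mix them. A CD8a+ kit was used for the thymus, and tumor cells were obtained by digestion, dead cell removal and CD8 (TIL) microbeads, so tissue and isolation cannot be told apart. The tables hold TCR chains only, so CD8 transcripts cannot be read in them.

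A TRA chain is made by joining a TRAV to a TRAJ gene, and a TRB chain by joining a TRBV, a TRBD and a TRBJ gene. The CDR3 loop spans the junction, reaches over the peptide held by an MHC molecule, and is the part of the receptor that differs most between clones. Thymocytes carry receptors that have just passed, or are still passing, selection on self-peptides. Tumor-infiltrating T cells come from the mature pool and include clones that have expanded. A mean over cells therefore weights each chain by the size of its clones, while a mean over distinct chains (V gene, J gene and CDR3 amino acid sequence, each counted once per table) does not.

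There were 2175 to 7575 cells per thymus table and between 1812 and 13283 per tumor table. Distinct TRA chains numbered 1757 to 6068 per thymus table and 327 to 8648 per tumor table, with mouse-160A tumor the shallowest. A distinct TRA chain was seen in 1.23 to 1.33 cells on average in thymus and in 1.41 to 5.54 cells in tumor. Multiplet marks had removed 9.97% to 19.0% of paired barcodes in thymus and 30.7% to 35.9% in tumor. No barcode occurred in more than 1 table, but 105 of 47259 paired clonotypes, with 5.98% of cells, were found in more than 1 animal, and in 31 of them cells of different animals shared every barcode part except that of the loading well. Invariant NKT-like TRAV11–TRAJ18 chains were on 9.75%, 10.9%, 8.76%, 5.90% and 7.77% of thymus cells, with the mice in the order in which they were named above, as throughout. In tumor they were on 0 of 1812 cells in mouse-160A, where a limit of 3 cells allows up to 0.166% (exact 95% upper limit 0.203%), and on 0.12% to 0.186% in the other 4. MAIT-like TRAV1–TRAJ33 chains were on 1 thymus cell and 0 tumor cells. The thymus tables, from cells that the study isolated as CD8+ T cells, thus held invariant NKT-like receptors. Results are also given without these receptors where that moves a call.

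Over distinct chains, TRB loops were more hydrophobic in tumor than in thymus in all 5 mice, and over cells in 3 of 5. Loop hydropathy is the mean Kyte–Doolittle value of the CDR3 without its outer 3 residues on each side, and higher means more hydrophobic. Over distinct TRB chains it was -1.28, -1.32, -1.29, -1.32 and -1.295 in thymus. The tumor values were -1.24, -1.25, -1.24, -1.23 and -1.23. All 5 tumor values lay above all 5 thymus values. The mean difference was 0.0648 ± 0.0167 (SD over pairs, n = 5), and an exact two-sided sign-flip permutation test gave p = 0.0625, the smallest it can give with 5 pairs. Adjusted over the 22 measures tested it was 0.196, so no measure could pass a threshold of 0.05. Among 11 measures over distinct chains, 5 (45.5%) moved in 1 direction in every pair. Over cells the difference in loop hydropathy ranged from -0.216 (mouse-160A) to 0.166 (mouse-164B) with a mean of -0.0094 ± 0.149 (SD, n = 5 pairs), and mouse-160C was also lower in tumor.

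Over the 8 sublibraries, each of which held cells of every table, the loop hydropathy of a table had an SD of 0.0164 to 0.0796. The spread was widest in mouse-160A tumor and above the mean tissue difference there. The difference was also present among chains of the same gene. When chains with the same TRBV gene were compared, tumor was higher by 0.0295 to 0.0615, and with the same TRBJ gene by 0.0267 to 0.0782, in 5 of 5 mice each. It also stood in 5 of 5 mice without TRAV11–TRAJ18 cells, with a median of 0.0634. Over 15 alternative settings the median difference ranged from 0.016 to 0.0859.

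Residues 6 and 7 of the TRB CDR3, counted from its first cysteine, lie near the middle of the loop where contact with peptide is frequent. Their mean hydropathy over distinct chains was -1.20, -1.22, -1.19, -1.26 and -1.21 in thymus and -1.10, -1.12, -1.13, -1.21 and -1.12 in tumor. It was higher in the tumor of each mouse, by 0.0797 ± 0.0225 (SD, n = 5 pairs; exact sign-flip permutation test, p = 0.0625, adjusted p = 0.196). The groups overlapped by mouse-164B tumor, which stood below 3 thymus tables. Over cells, residues 6 and 7 were higher in 3 of 5 tumors, with differences of -0.261 to 0.174. The other 2 animals of the series (mouse-155A and mouse-155C) have a spleen table in place of a tumor table, and their values were -1.22 and -1.13 in thymus and -1.11 and -1.05 in spleen.

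**Figure D1:**
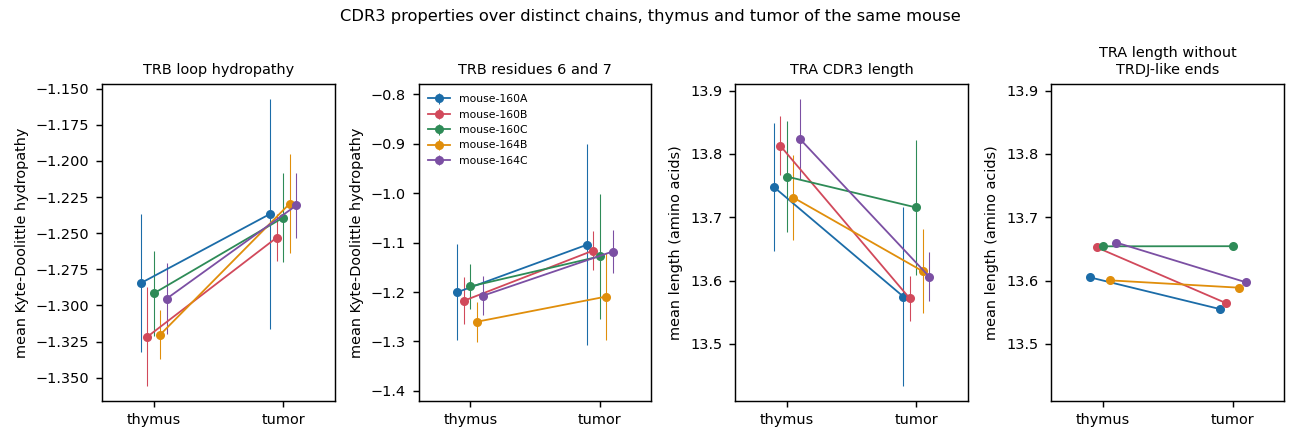
Mean CDR3 properties over distinct chains in the thymus and tumor of each of the 5 mice, joined by a line. From left to right: TRB loop hydropathy, hydropathy of TRB residues 6 and 7, TRA length in amino acids, and TRA length without chains that end like a TRDJ gene. Bars are SDs over 8 sublibraries, not drawn in the last panel. All 5 lines rise in both hydropathy panels and fall for TRA length, whereas in the last panel the lines are flatter and that of mouse-160C does not fall.

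Counts of single amino acids in the loop gave the residues that differed. Of 20 amino acids tested in edgeR with the animal as a block, 8 (40.0%) passed an adjusted p of 0.05, 5 higher and 3 lower in tumor. Leucine, a hydrophobic residue, made up 4.12% to 4.27% of thymic TRB loop residues and 4.72% to 5.13% of those in tumor. It rose in all 5 mice, with a log2 difference of 0.19 ± 0.02 (SE; adjusted p = 2.3e-06).

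The aromatic residues tyrosine, tryptophan and phenylalanine rose as well, the latter pair in 4 of 5 mice each. Tyrosine took 2.99% to 3.12% of residues in thymus and 3.39% to 4.1% in tumor, without overlap (log2 difference 0.19 ± 0.02, adjusted p = 6.0e-06). Tryptophan had a log2 difference of 0.24 ± 0.04 (adjusted p = 3.7e-05), with mouse-160A, where tumor had 33 tryptophans in all, going the other way. Phenylalanine had a log2 difference of 0.19 ± 0.06 (adjusted p = 0.018) and was lower in the tumor of mouse-160C (0.827% and 0.793%), and the aliphatic residue valine 0.13 ± 0.04 (adjusted p = 0.012). The polar residues asparagine (-0.08 ± 0.02, adjusted p = 0.0018) and glutamine (-0.08 ± 0.02, adjusted p = 0.0048) and the acidic aspartate (-0.06 ± 0.02, adjusted p = 0.0055) fell. In mouse-160A glutamine (4.90% and 5.17%) and aspartate (7.83% and 8.29%) were higher in tumor. Leucine, tyrosine, tryptophan and asparagine passed under all 17 alternatives, DESeq2 included. Without TRAV11–TRAJ18 cells 8 of 19 amino acids passed (42.1%), phenylalanine (adjusted p = 0.070) and aspartate (adjusted p = 0.29) no longer and lysine and arginine as well. Residues of a chain are not independent counts and shares of a whole move against each other, so these p-values describe the tables rather than separate events.

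The net charge of the TRB CDR3 over distinct chains was less negative in every tumor. It counts lysine and arginine as plus 1 and aspartate and glutamate as minus 1. The means were -0.867, -0.844, -0.865, -0.857 and -0.858 in thymus and -0.830, -0.821, -0.824, -0.823 and -0.837 in tumor. The tissues did not overlap, with a mean difference of 0.0315 ± 0.00896 (SD, n = 5 pairs; exact sign-flip permutation test, p = 0.0625, adjusted p = 0.196). This difference went with the TRAV11–TRAJ18 cells. Without them the median difference was 0.00111 and 3 of 5 mice were higher in tumor. With those cells kept, distinct chains of the same TRBV gene were higher in tumor in 3 of 5 mice, and of the same TRBJ gene in 5 of 5. Over cells 4 of 5 tumors were more negative than their thymus, with differences of -0.177 to 0.222 and a mean of -0.0136 ± 0.148 (SD, n = 5 pairs). The mean length of distinct TRB chains differed little, 13.94 to 13.96 amino acids in thymus and 13.81 to 14.09 in tumor, with 4 of 5 tumors shorter.

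Over distinct chains, the mean TRA CDR3 was shorter in tumor in all 5 mice. It had 13.75, 13.81, 13.76, 13.73 and 13.82 amino acids in thymus and 13.57, 13.57, 13.72, 13.61 and 13.61 in tumor. The tissues did not overlap, with tumors shorter by 0.0488 (mouse-160C) to 0.241 (mouse-160B). The mean difference was -0.159 ± 0.078 (SD, n = 5 pairs; exact sign-flip permutation test, p = 0.0625, adjusted p = 0.196). Among chains of the same TRAV gene, tumor was longer in 2 of 5 mice, and of the same TRAJ gene in 0 of 5. Most of the difference of -0.159 went with a small set of long thymic chains that were noticed in the data and are described next. Without them the thymus means were 13.60 to 13.66 and the tumor means 13.56 to 13.65, with a median difference of -0.0498 and mouse-160C not shorter in tumor (13.65 in both).

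These chains were annotated as TRA, yet the last 5 residues of their CDR3 were those that TRDJ1 or TRDJ2 encodes and no TRAJ gene does. The TRD locus, whose products form the δ chain of γδ T cells, lies inside the TRA locus, and some V genes (named DV) can join to either. TRDJ1 lies at chr14:54360595-54360645 and the TRAJ22 gene, to which most of these chains had been assigned, at chr14:54434705-54434764 (GRCm39, plus strand). The germline TRDJ1 segment is shown with the codons of the conserved F-G-X-G motif in capitals, followed by the CDR3 of a thymic example for each of the 3 leading V genes, with the 20 bases shared with germline TRDJ1 in capitals.
TRDJ1: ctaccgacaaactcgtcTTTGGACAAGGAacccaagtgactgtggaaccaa
TRAV21-DV12, mouse-160C thymus: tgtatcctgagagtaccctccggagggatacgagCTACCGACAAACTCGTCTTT
TRAV15D-1-DV6D-1_1, mouse-160B thymus: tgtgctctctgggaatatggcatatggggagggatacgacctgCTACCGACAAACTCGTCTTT
TRAV15-1-DV6-1_1, mouse-164C thymus: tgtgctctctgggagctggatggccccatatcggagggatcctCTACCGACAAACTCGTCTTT
All 3 carry the opening 20 bases of TRDJ1 unchanged.

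TRDJ-like ends were found on 676 cells, 627 from thymus and 49 from tumor, in 661 distinct CDR3s. They were on 2.21%, 2.47%, 1.93%, 2.42% and 2.84% of thymus cells and on 0.0552%, 0.12%, 0.346%, 0.17% and 0.113% of tumor cells. The thymus share was 5.58 (mouse-160C) to 40.0 (mouse-160A, where the tumor count was 1 cell) times the tumor share, and the exact 95% binomial intervals did not overlap in any mouse. Mouse-155A and mouse-155C had such ends on 3.74% and 3.14% of thymus cells and 0.211% and 0.145% of spleen cells. Intervals cover counting error only, and since the class was defined after these values were seen, no test is given.

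**Figure D2:**
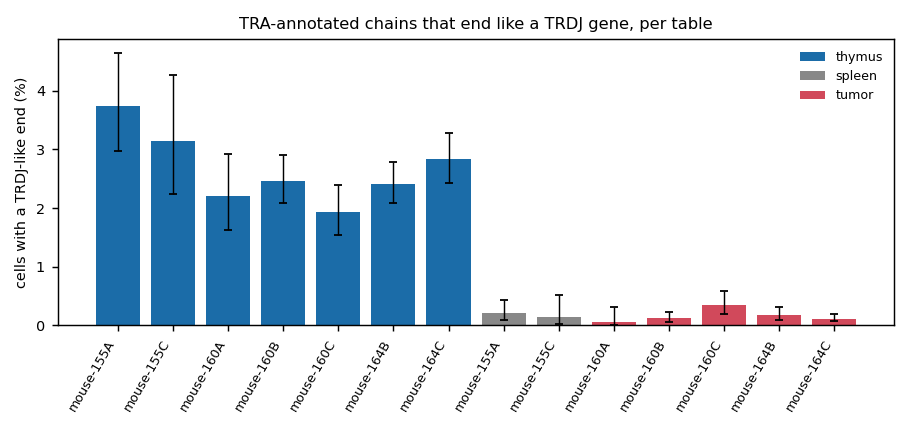
Share of counted cells, in percent, whose TRA-annotated chain ends like a TRDJ gene, per table, with exact 95% binomial intervals as bars. Thymus tables of 7 mice stand at 1.93% to 3.74%, and the 2 spleen and 5 tumor tables at 0.0552% to 0.346%.

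Of the 676 cells, 92.2% had been assigned to TRAJ22 and 673 ended like TRDJ1. The V genes TRAV15-1-DV6-1_1 (232 cells), TRAV21-DV12 (200 cells) and TRAV15D-1-DV6D-1_1 (173 cells) led, and the first and last of these are near-identical copies between which reads may be split. Of 600 cells with TRAJ22 and one of these V genes, 557 (92.8%) had a TRDJ-like end, against 66 of 4475 other TRAJ22 cells. The median CDR3 length was 18 amino acids against 14 for other chains. In the thymus these cells had a median of 9 TRB transcripts, against 3 in the other cells.

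The assembled sequences were searched for the opening 18 bases of the constant genes. Those of TRDC, the δ constant gene, were found in 342 of 507 annotated thymic chains with a TRDJ-like end (67.5%) and in 30 of 42 in tumor (71.4%). Among other TRA chains they were found in 22 of 20339 in thymus (0.108%) and 0 of 23711 in tumor. The opening bases of TRAC were found in 1 of the 507 and in 77.6% of other thymic chains. A further 108 of the 507 (21.3%) ran into the intron behind TRDJ1. Such a chain held the place of TRA in a counted cell, and values that these cells move are given without them too.

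TRA net charge was more positive in tumor in all 5 mice over distinct chains. It was 0.386, 0.397, 0.407, 0.405 and 0.365 in thymus and 0.505, 0.468, 0.408, 0.436 and 0.451 in tumor. All tumor values lay above all thymus values, narrowly in mouse-160C, where the difference was 0.000926. The mean difference was 0.0615 ± 0.046 (SD, n = 5 pairs; exact sign-flip permutation test, p = 0.0625, adjusted p = 0.196). The median difference was 0.0709, and this median kept its sign under all 15 alternatives. Over cells the direction was the opposite in 4 of 5 mice, with differences of -0.399 (mouse-160A) to 0.0290 (mouse-160B) and a mean of -0.186 ± 0.183 (SD, n = 5 pairs). Without TRDJ-like ends it was 0.396, 0.424, 0.419, 0.430 and 0.389 in thymus and 0.509, 0.469, 0.426, 0.439 and 0.454 in tumor. Mouse-155A and mouse-155C had 0.375 and 0.332 in thymus and 0.418 and 0.464 in spleen. When distinct chains of the same TRAJ gene were compared within the 5 pairs, TRA net charge was higher in tumor in 4 of 5. With the same TRAV gene it was also higher in 4 of 5.

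In the TRA loop, 10 of 20 amino acids (50.0%) passed the edgeR test, and 3 (glutamate, aspartate and arginine) also passed without TRDJ-like ends. Glutamate, which is acidic, took 3.45% to 3.63% of thymic and 2.58% to 2.97% of tumor residues (log2 difference -0.31 ± 0.04, adjusted p = 1.4e-07). Aspartate, also acidic, took 4.86% to 5.39% and 3.63% to 4.55% (-0.21 ± 0.04, adjusted p = 4.1e-05). Arginine, which is basic, took 5.07% to 5.34% and 4.03% to 4.78% (-0.18 ± 0.04, adjusted p = 0.00034). Each of the 3 fell in all 5 mice without overlap and passed under all 17 alternatives, at -0.24, -0.17 and -0.16 without TRDJ-like ends. Lysine, the other basic residue, had a log2 difference of 0.04 ± 0.03 (adjusted p = 0.40).

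The other 7 calls in the TRA loop were lost without TRDJ-like ends. Isoleucine, at -0.51 ± 0.10 (adjusted p = 0.00012), was at -0.08 without them (adjusted p = 0.76), and tryptophan, at -0.16 ± 0.06 (adjusted p = 0.038), was at 0.04 (adjusted p = 0.76). Glutamine (0.13), tyrosine (0.09), asparagine (0.10), serine (0.08) and threonine (0.08) had risen, and without these ends none of the 5 passed. With these ends, isoleucine and tryptophan were higher in the tumor of mouse-160C and asparagine was lower in that of mouse-160A, against the direction of the other 4 mice. Threonine was at 0.05 there, and at 0.07 with an adjusted p of 0.0099 when TRAV11–TRAJ18 cells, TRDJ-like ends and CDR3s that did not run from C to F or W were all left out.

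**Figure D3:**
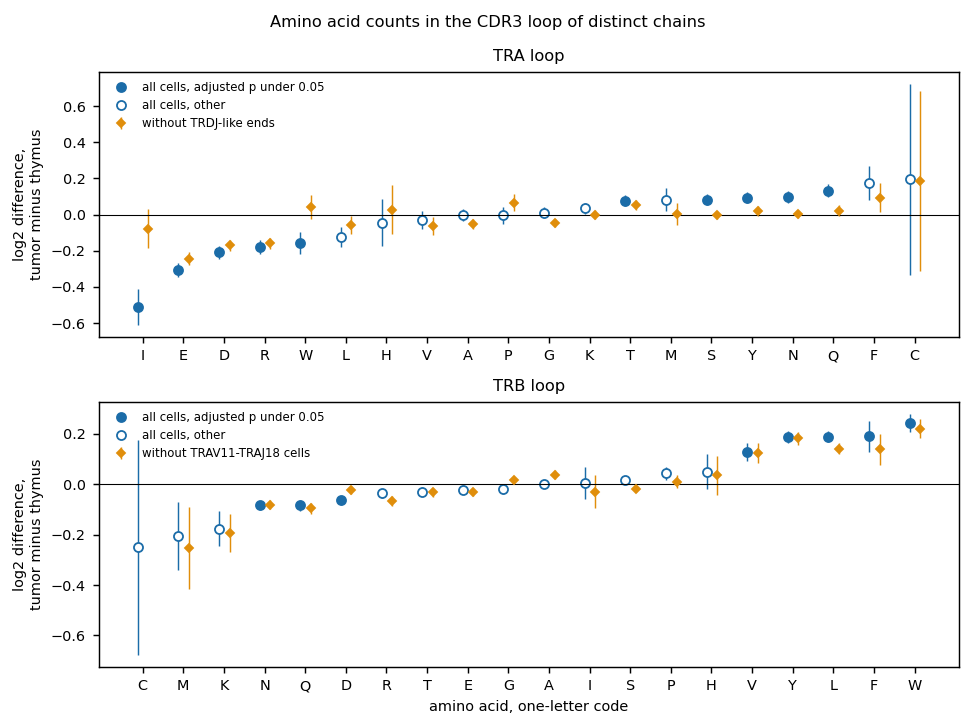
Log2 difference, tumor minus thymus, in the count of each amino acid (one-letter code) in the TRA loop (top) and the TRB loop (bottom) of distinct chains, with SE bars. Circles are all cells, filled where the edgeR adjusted p was under 0.05, and diamonds are the fit without TRDJ-like ends (top) or without TRAV11–TRAJ18 cells (bottom). In TRA, isoleucine moves from -0.51 to -0.08 and glutamate stays below 0, and in TRB leucine, tyrosine and tryptophan stay above 0.

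TRAJ use over distinct chains passed the test for few genes. Of 41 TRAJ genes tested in edgeR, 4 (9.76%) passed an adjusted p of 0.05, with 2 higher (4.88%) and 2 lower (4.88%) in tumor. Without TRDJ-like ends 3 passed (7.32%), and DESeq2 also called 3. TRAJ22 took 8.37%, 9.22%, 8.02%, 8.31% and 8.9% of distinct TRA chains in thymus and 5.81%, 5.75%, 7.14%, 6.31% and 6.52% in tumor. It was lower in every tumor, with a log2 difference of -0.50 ± 0.08 (SE; adjusted p = 0.0029). Without TRDJ-like ends the difference was 0.03 (adjusted p = 0.76).

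TRAJ45 took 3.87%, 3.54%, 3.76%, 2.95% and 3.404% in thymus and 0.917%, 2.78%, 2.54%, 2.52% and 2.64% in tumor. All tumors lay below all thymi, the value of mouse-160A resting on 3 chains, with a log2 difference of -0.39 ± 0.09 (adjusted p = 0.019). Without TRDJ-like ends it was -0.40 (adjusted p = 0.00053). TRAJ27 took 2.43% to 3.19% in thymus and 3.25% to 4.59% in tumor, again without overlap (0.28 ± 0.06, adjusted p = 0.02). Its adjusted p was 0.10 in DESeq2 and 0.093 when TRAV11–TRAJ18 cells, TRDJ-like ends and CDR3s that did not run from C to F or W were all left out.

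TRAJ52 took 1.04% to 1.65% in thymus and 1.21% to 2.45% in tumor, with 1.36% and 1.21% in mouse-160C. It was higher in 4 of 5 tumors, mouse-160C being the exception (log2 difference 0.49 ± 0.12, adjusted p = 0.02). TRAJ27 and TRAJ52 both lost their calls when mouse-160B or mouse-164B was left out. The next gene by p, TRAJ49_1, had a log2 difference of 0.20 ± 0.08 (adjusted p = 0.16).

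**Figure D4:**
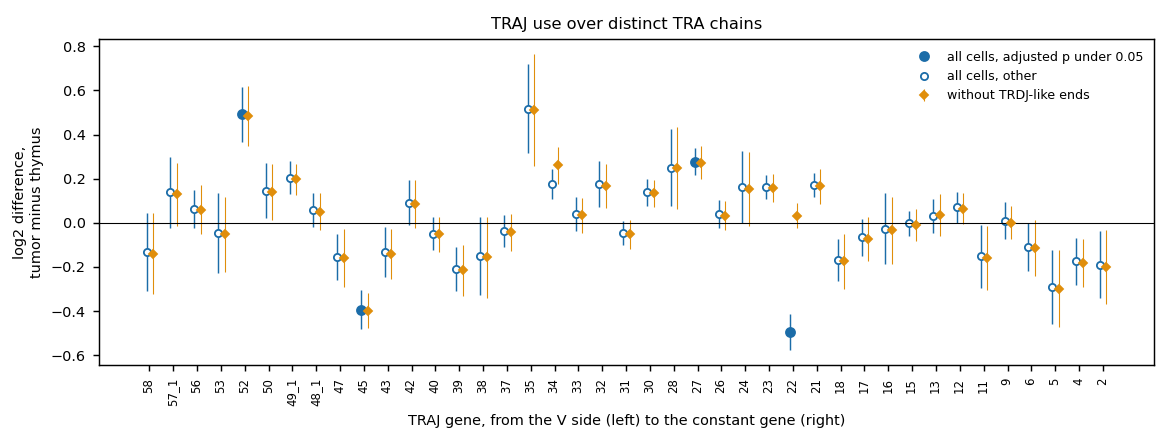
Log2 difference, tumor minus thymus, in the count of distinct TRA chains per TRAJ gene, ordered from the V side of the locus to the constant gene, with SE bars. Circles are all cells, filled where the edgeR adjusted p was under 0.05, and diamonds are the fit without TRDJ-like ends. TRAJ22 moves from -0.50 to 0.03 while TRAJ45 stays at -0.40 and TRAJ52 and TRAJ27 stay above 0.

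Over cells rather than chains, TRAJ18 was the 1 gene of 41 (2.44%) that passed. It was on 10.8%, 12.3%, 10.3%, 7.30% and 9.11% of thymus cells and on 0.386%, 1.92%, 0.559%, 1.32% and 1.51% of tumor cells (log2 difference -2.81 ± 0.38, edgeR adjusted p = 0.0025). TRAJ18 is the J gene of the invariant NKT receptor. Without TRAV11–TRAJ18 cells it had a log2 difference of -0.12 (adjusted p = 0.82), and 0 of 41 genes passed in edgeR, with 2 at an unadjusted p under 0.05. DESeq2 was run on all cells only, where it also called 1 gene.

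TRAV–TRAJ pairing was tested for 43 pairs with enough distinct chains, and 3 (6.98%) passed, all lower in tumor. They were TRAJ22 with the DV genes named above. These pairs met the low-count filter through their thymus counts, so their direction is no separate result. Of 600 cells with these pairs, 557 had a TRDJ-like end, a class defined after its values were seen. The p-values below are therefore no test of that class. TRAV21-DV12–TRAJ22 had 14, 40, 32, 42 and 55 distinct chains in thymus and 0, 2, 2, 1 and 5 in tumor (log2 difference -4.09 ± 0.41, edgeR adjusted p = 4.7e-17). TRAV15-1-DV6-1_1–TRAJ22 had 18, 41, 21, 75 and 54 in thymus and 0, 4, 4, 4 and 5 in tumor (-3.44 ± 0.44, adjusted p = 1.1e-11).

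TRAV15D-1-DV6D-1_1–TRAJ22 had 11 to 45 in thymus and 1 to 5 in tumor (-3.13 ± 0.33, adjusted p = 2.7e-16). This pair too met the low-count filter through its thymus counts, and DESeq2 was run after the same filter. In DESeq2 only TRAV15-1-DV6-1_1–TRAJ22 passed (1 of 43, 2.33%), with adjusted p-values of 0.098 for TRAV15D-1-DV6D-1_1 and 0.99 for TRAV21-DV12. Without TRDJ-like ends these pairs had too few chains to be tested, and of the 40 pairs tested 0 passed in edgeR, with 1 at an unadjusted p under 0.05.

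TRBV–TRBJ pairing gave 10 calls among 165 pairs (6.06%), with 5 higher (3.03%) and 5 lower (3.03%) in tumor, and 0 in DESeq2, where 14 had an unadjusted p under 0.05. Of the higher pairs, TRBV16–TRBJ2-1 had 13, 31, 22, 40 and 38 distinct chains in thymus and 4, 65, 7, 22 and 96 in tumor and was a larger share of the tumor table in 5 of 5 mice (log2 difference 0.69 ± 0.19, adjusted p = 0.015). TRBV12-1–TRBJ2-7 and TRBV12-2–TRBJ2-2 were also higher in 5 of 5, at 0.56 ± 0.18 (adjusted p = 0.024) and 0.90 ± 0.26 (adjusted p = 0.017).

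TRBV3–TRBJ2-4 (0.83 ± 0.22, adjusted p = 0.012) and TRBV12-2–TRBJ2-4 (0.79 ± 0.25, adjusted p = 0.024) were higher in 4 of 5. Of the lower pairs, TRBV13-2–TRBJ1-1 had 28, 95, 51, 101 and 91 distinct chains in thymus and 0, 69, 8, 21 and 99 in tumor (-0.70 ± 0.19, adjusted p = 0.012). TRBV13-2–TRBJ1-2 was at -0.67 ± 0.19 (adjusted p = 0.015), TRBV1–TRBJ1-4 at -0.84 ± 0.24 (adjusted p = 0.015) and TRBV1–TRBJ1-3_1 at -1.05 ± 0.32 (adjusted p = 0.02).

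TRBV4–TRBJ1-4 had 9, 16, 10, 24 and 19 distinct chains in thymus and 0, 8, 0, 3 and 17 in tumor (-1.21 ± 0.32, adjusted p = 0.012). It was the only pair of 162 that passed (0.617%) without TRAV11–TRAJ18 cells, at an adjusted p of 0.033. With all cells this pair met the low-count filter through its thymus counts, so its direction is no separate result. TRBV13-2 is a V gene that invariant NKT receptors use, and without those cells TRBV13-2–TRBJ1-2 was at -0.02 (adjusted p = 0.98) and TRBV13-2–TRBJ1-1 at -0.26 (adjusted p = 0.42). The 5 higher pairs kept log2 differences of 0.49 to 0.80, with adjusted p-values of 0.077 to 0.096. TRBV12-1 and TRBV12-2 are close copies between which reads may be split.

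The order of the TRA locus showed in the pairing within every table. V genes near the J cluster pair with J genes at its near end in early rearrangements, which carry high TRAJ numbers, and later rearrangements reach outward on both sides. In thymus the mean TRAJ number rose from 21.5 to 23.5 with the 27 TRAV genes farthest from the J cluster to 37.0 to 38.3 with the 27 nearest, and in tumor from 22.9 to 23.9 to 35.5 to 38.9. Across distinct chains, Spearman's rho of TRAV position with TRAJ number was 0.438, 0.435, 0.442, 0.423 and 0.447 in thymus (n = 1757 to 6068 chains) and 0.360, 0.450, 0.430, 0.430 and 0.445 in tumor (n = 327 to 8648). Chains of a table share a library and are no replicates. The tumor value was lower in 3 of 5 mice, and in 5 of 5 without TRDJ-like ends, where the median difference was -0.0237.

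The mutual information of V and J gene, taken at the number of distinct chains of the shallower table of a pair, was higher in 2 and lower in 3 tumors for TRA, with a median difference of -0.0847 bits, and -0.0361 without TRDJ-like ends. The mean TRAJ number over distinct chains was 28.3 to 29.8 in thymus and 27.3 to 30.0 in tumor, higher in 4 of 5 tumors.

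Over cells, only 2 of 11 measures (18.2%) moved in 1 direction in every pair, and single chains moved several tumor means. The means of TRA length over cells were 13.81, 13.88, 13.75, 13.70 and 13.79 in thymus and 14.25, 13.59, 13.67, 13.40 and 13.67 in tumor. The range among tumors was thus 0.851 amino acids and that among thymi 0.181. In mouse-160A 1 chain of 16 amino acids (TRAV14-3–TRAJ52, 309 cells, 17.1% of the table) alone raised the mean from 13.89 to 14.25.

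Net charge over cells was 0.0121 in the tumor of mouse-160A, with that chain at a charge of -1, and 0.220 without it. The thymus of that mouse was at 0.411, above both. In mouse-164B tumor a TRAV3-3_1–TRAJ33 chain (710 cells, 12.1%) lowered the TRA charge from 0.290 to 0.134, against 0.398 in thymus. A TRBV13-1_1–TRBJ2-7 chain (1020 cells, 17.3%), at a charge of -2, lowered its TRB charge from -0.838 to -1.04, against -0.862 in thymus.

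In mouse-160C tumor a TRAV14-1–TRAJ21 chain (410 cells, 10.9%) lowered TRA length from 13.87 to 13.67, so that the tumor lay below the thymus (13.75) with it and above without it. A TRAV6-5_1–TRAJ13 chain (402 cells, 10.7%) lowered its TRA charge from 0.260 to 0.125, against 0.401 in thymus. In mouse-160A tumor a TRBV13-2–TRBJ2-1 chain (263 cells, 14.5%) lowered TRB length from 13.71 to 13.46, and a TRBV23_1–TRBJ1-4 chain (208 cells, 11.5%) raised TRB charge from -0.862 to -0.648.

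In mouse-164C tumor the shifts were smaller. A TRAV3-1–TRAJ22 chain (1189 cells, 8.95%) moved TRA charge by -0.0346, a TRAV12-1_1–TRAJ56 chain (780 cells) TRA length by 0.0832, and a TRBV12-1–TRBJ1-2 chain (819 cells) TRB length by 0.0739. In mouse-160B tumor, where the leading TRA pair TRAV5-4–TRAJ42 held 1.82% of cells, the chain that moved a mean most held at most 2.0% of cells. For TRA length and charge there it was a TRAV8-2–TRAJ30 chain (65 cells). Its CDR3 was on 58 thymus cells and is the TRAJ30 sequence shown further below. The thymus tables had no such leading TRB pair, TRBV13-2–TRBJ2-7 leading in each with 2.13% to 2.9% of cells on 63 to 181 distinct chains.

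**Figure D5:**
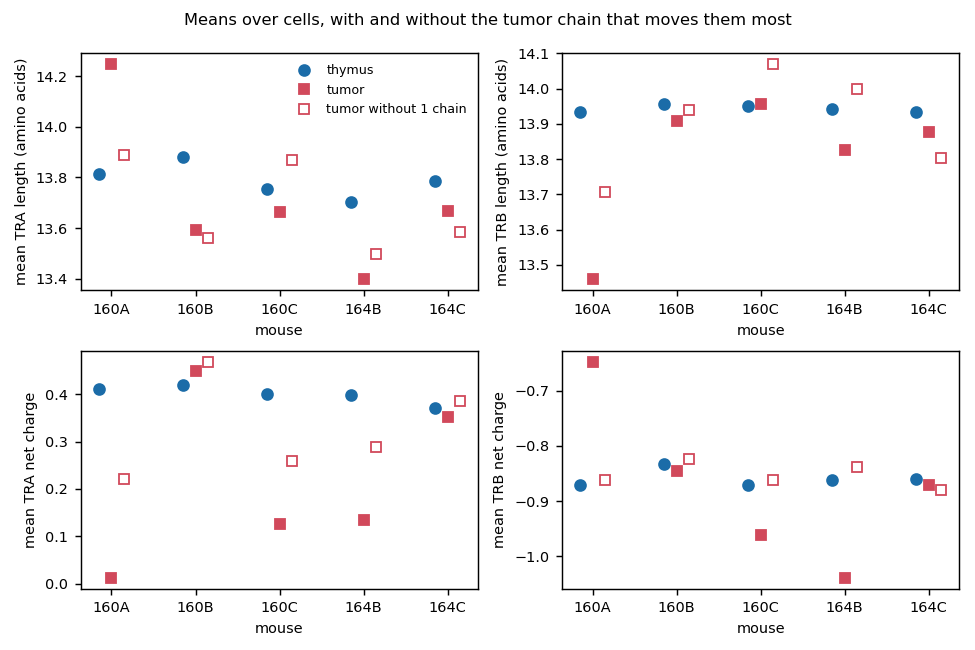
Means over cells of CDR3 length in amino acids (top) and net charge (bottom) of TRA (left) and TRB (right) per mouse, in thymus (circles), in tumor (filled squares) and in tumor without the chain that moves that mean most (open squares). The thymus means lie close together, the tumor means spread, and in mouse-160A the TRA length falls from 14.25 to 13.89 without 1 chain.

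Each tumor had a leading TRA and a leading TRB pair of genes, most of whose cells carried 1 CDR3. For TRB they were TRBV13-2–TRBJ2-1 in mouse-160A (374 cells, 20.6%), TRBV29–TRBJ2-2 in mouse-160B (203 cells, 2.44%), TRBV13-3–TRBJ2-7 in mouse-160C (392 cells, 10.4%), TRBV13-1_1–TRBJ2-7 in mouse-164B (1096 cells, 18.6%) and TRBV12-1–TRBJ1-2 in mouse-164C (918 cells, 6.91%). The most frequent CDR3 of each leading pair is shown, so that the chains that led each tumor can be seen, with the thymic TRAV11–TRAJ18 chain for comparison. TRA and TRB were ranked separately, and whether the chains listed for a mouse share cells was not tested. No part is marked, so there are no capitals.
mouse-160A tumor, TRAV14-3–TRAJ52: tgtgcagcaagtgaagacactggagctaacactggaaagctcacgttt
mouse-160B tumor, TRAV5-4–TRAJ42: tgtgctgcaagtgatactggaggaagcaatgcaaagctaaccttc
mouse-160C tumor, TRAV14-1–TRAJ21: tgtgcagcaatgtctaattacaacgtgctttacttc
mouse-164B tumor, TRAV3-3_1–TRAJ33: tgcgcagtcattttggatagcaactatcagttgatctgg
mouse-164C tumor, TRAV3-1–TRAJ22: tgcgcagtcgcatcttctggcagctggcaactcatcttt
mouse-160A tumor, TRBV13-2–TRBJ2-1: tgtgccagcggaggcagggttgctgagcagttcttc
mouse-160B tumor, TRBV29–TRBJ2-2: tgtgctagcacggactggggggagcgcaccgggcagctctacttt
mouse-160C tumor, TRBV13-3–TRBJ2-7: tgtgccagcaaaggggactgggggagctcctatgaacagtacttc
mouse-164B tumor, TRBV13-1_1–TRBJ2-7: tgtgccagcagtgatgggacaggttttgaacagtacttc
mouse-164C tumor, TRBV12-1–TRBJ1-2: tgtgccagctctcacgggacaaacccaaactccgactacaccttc
thymus of all 5 mice, TRAV11–TRAJ18: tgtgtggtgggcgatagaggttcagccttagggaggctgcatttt
Each tumor CDR3 had 1 or 2 nucleotide sequences among its annotated cells, and the second was on 1 cell where there was one (709 of 710 cells were on the sequence shown for TRAV3-3_1–TRAJ33). The invariant CDR3 had 13 among 1714 annotated thymus cells, the one shown being on 653, and its 2004 thymus cells had 1915 different TRB partners. Sequence annotations were held for 29.8% of cells of mouse-164C tumor and 40.4% of mouse-164B thymus, so fewer of their cells could be read.

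The measures that moved in 1 direction in every pair over cells were the shares of chains with a cysteine in the loop. For TRA the share was 5.39% to 6.92% in thymus and 1.70% to 3.67% in tumor, lower in each tumor by 2.34 to 4.38 percentage points (exact sign-flip permutation test, n = 5 pairs, p = 0.0625, adjusted p = 0.196). For TRB it was 0.198% to 0.356% and 0% to 0.173%. Most of the TRA difference lay in sequences that do not run from C to F or W as a CDR3 does, which were on 2737 cells (4.65%). The median TRA difference was -3.25 points with them and -0.103 without them, when 4 of 5 tumors were lower.

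The leading 3 of these sequences were found in all 5 mice. They are shown with CACAGTG, the heptamer of a recombination signal, in capitals.
TRAJ28, 560 thymus and 386 tumor cells: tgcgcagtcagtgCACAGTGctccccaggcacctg
TRAJ28, 548 thymus and 123 tumor cells: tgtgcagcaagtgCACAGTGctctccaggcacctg
TRAJ30, 256 thymus and 197 tumor cells: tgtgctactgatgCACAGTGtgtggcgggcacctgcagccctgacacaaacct
In thymus they had 548, 547 and 254 different TRB partners, and the sequence shown was on 473 of 474, 445 of 445 and 193 of 206 annotated cells. Each codes for a cysteine whose codon starts in the heptamer. Their median support was 1 transcript, and with at least 2 transcripts asked of each chain the median TRA difference was -0.678 points.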

How the data were processed

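TCR libraries (Parse Evercode TCR) of CD8+ T cells were sequenced as 8 multiplexed sublibraries. Per table, the authors deposited a barcode report with read and transcript counts per chain, a clonotype list with the cell count and its fraction of the table, and annotated sequences. Genes and CDR3 are the authors' calls (GRCm39 per the submitters' processing notes), with the V(D)J reference and pipeline version not given in the sources used here. Animal and tissue came from table names, since the labels name sublibraries only. The clonotype counts equalled a tally of the counted barcodes in 47529 of 47529 entries.

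Members, gene lists and the measures were chosen with earlier results of these data known. Barcodes without multiplet mark and with both CDR3s were counted, as cells and as distinct chains. Of 22 mean properties, pairs were compared by an exact two-sided sign-flip permutation test with Benjamini-Hochberg adjustment. Counts of TRAJ genes, V–J pairs and loop residues were tested in edgeR 4.0.16 (R 4.3.3; quasi-likelihood, TMM, filterByExpr with a minimum count of 10, animal as block and tissue, Benjamini-Hochberg adjustment), with DESeq2 1.42.0 as an alternative. The edgeR fit was also run on simulated counts. Those were drawn independently and without an animal effect, so that run does not cover residue counts that depend on each other within a chain. Thymus and tumor of an animal pair by origin, and their deviations in TRAJ use correlated at -0.142 to 0.434. Sign-flip p-values rest on the 5 within-animal differences alone. edgeR p-values also rest on a dispersion shared across the features of a fit, so they do not measure the spread of 1 feature over 5 animals. The SD over sublibraries is technical. Mutual information was averaged over 20 draws of chains at matched depth. Python 3.11.15 with pandas 2.3.3, numpy 2.4.6, scipy 1.17.1 and matplotlib 3.10.9 was used.

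The genes named were TRAJ genes past an adjusted p of 0.05 (and the next, up to 5), the 5 V–J pairs of lowest p in each direction per chain, every amino acid called, the leading V–J pair of each tumor, the chain that moved each tumor mean most, and TRAV11–TRAJ18. Alternatives were another normalization, no low-count filter, DESeq2, no block, multiplets kept, at least 2 transcripts, 1 chain per locus, no clonotype of more than 1 animal, no TRAV11–TRAJ18 cells, and each animal left out. Leaving out TRDJ-like ends, CDR3s not from C to F or W, or all of these at once was chosen after seeing the data.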

Additional observations from a re-analysis of the deposited data

Results flagged for a closer look

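In 50 groups of 5 tables, 4 had a table farther from the rest than Dixon's limit allows, and chance flags about 1 in 20 groups. The mean TRAJ number over cells was 25.6 in mouse-160C tumor and 29.8 to 30.9 in the other tumors. The hydropathy of TRB residues 6 and 7 over distinct chains was -1.21 in mouse-164B tumor and -1.13 to -1.10 in the others, and that tumor was still above its own thymus. The mean TRB length over cells was 13.46 in mouse-160A tumor, where a TRBV13-2–TRBJ2-1 chain held 14.5% of cells, and 13.83 to 13.96 in the others. The rank correlation of TRAV position with TRAJ number was 0.360 in mouse-160A tumor, on 327 distinct chains, and 0.430 to 0.450 in the others.

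The opening bases of TRDC stood out in the annotated sequences, which the comparisons do not use otherwise. They were in 67.5% of thymic and 71.4% of tumor TRA-annotated chains with a TRDJ-like end, against 0.108% and 0% of other TRA chains.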

How the results depend on the processing

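The limits are those of 5 animals of unstated genotype and tumor model, of tumor tables down to 312 distinct TRB chains, and of gene calls that could not be remade. The sign of the median difference in TRB loop hydropathy over distinct chains was the same under all 15 alternatives. Leaving out TRAV11–TRAJ18 cells, TRDJ-like ends and CDR3s not from C to F or W together cut the properties with all pairs in 1 direction from 7 to 3, TRAJ calls over chains from 4 to 2 and over cells from 1 to 0, TRAV–TRAJ calls from 3 to 0, TRBV–TRBJ calls from 10 to 1 and TRA residue calls from 10 to 4. Leaving out TRDJ-like ends alone left 0 TRAV–TRAJ and 3 TRA residue calls, and leaving out TRAV11–TRAJ18 cells alone left 0 TRAJ calls over cells and 1 TRBV–TRBJ call. DESeq2 called 1 TRAV–TRAJ pair, 0 TRBV–TRBJ pairs and 4 TRB residues (8 in edgeR). Keeping multiplets gave 34 TRBV–TRBJ calls, at least 2 transcripts gave 6, barcodes with 1 chain per locus gave 4 and dropping clonotypes of more than 1 animal gave 4. TRAJ calls over chains were 2 both with at least 2 transcripts and with 1 chain per locus, and TRA residue calls were 5 with 1 chain per locus. The cause was not tested.

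Without the animal as a replicate block, TRBV–TRBJ calls were 15, TRAJ calls over chains 3 and over cells 1, TRAV–TRAJ calls 3, TRA residue calls 10 and TRB residue calls 9. The block changed the TRBV–TRBJ count by 1.5 times and no other count by as much.

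With each animal left out, the properties with all remaining pairs in 1 direction numbered 7 to 11, TRAJ calls over chains 2 to 4 (2 without mouse-160B or mouse-164B), TRAJ calls over cells 1, TRAV–TRAJ calls 2 to 3, TRBV–TRBJ calls 2 to 11 (2 without mouse-160B or mouse-164C and 3 without mouse-164B), TRA residue calls 5 to 11 (5 without mouse-160B or mouse-164C and 6 without mouse-164B) and TRB residue calls 7 to 9.

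Signs turned for 4 named features. TRAJ22 was at 0.0325 without TRDJ-like ends and 0.0132 with all 3 kinds of cells left out, and TRBV13-2–TRBJ1-2 at 0.0836 with all 3 left out. In TRA loops, serine was at -0.000164 without TRDJ-like ends and tryptophan at 0.0425, or 0.0686 with all 3 left out.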
